A study of Mus musculus and Homo sapiens with 10 samples.

Results

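Intracisternal A-type particle (IAP) elements were followed here as 25 repeat subfamilies of the mouse genome, out of 1196 in the subfamily count table. A subfamily was taken when its name began with IAP and the annotation placed it in the ERVK family of LTR elements. Of the 25, 10 were internal subfamilies and 15 were LTR subfamilies. Names ending in -int, and IAPLTR4_I by its ending, were counted as internal.

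IAPs are endogenous retroviruses of rodents that move through an RNA copy. An intact provirus has an internal part, which encodes the particle and replication proteins, between a pair of long terminal repeats (LTRs), and the upstream LTR holds the promoter. Many copies are solitary LTRs left by recombination. In mouse embryonic stem cells (mESCs) IAPs are silenced by TRIM28 and the H3K9 methyltransferase SETDB1, which are brought to DNA by KRAB zinc finger proteins, and by DNA methylation.

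E14 mESCs, an established line, were grown in 2i medium with LIF, which is serum-free and holds inhibitors of MEK and of GSK3. RNA-seq was made from 4 untreated control cultures and from 4 cultures given vitamin C (vitC) at 100 µg/ml for 24 h. Each vitC library shared a culture label with 1 control library: 10 for pair 1, 11 for pair 2, 35B for pair 3 and 35C for pair 4. All libraries came from 1 cell line, the labels do not say what separates the cultures, and p-values therefore measure the spread between these samples. VitC is a cofactor of dioxygenases that include the TET enzymes, which oxidise methylated cytosine, and the Jumonji histone demethylases, and the comparison asked which transposable elements (TEs) changed in RNA level under it.

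Total counts over all subfamilies ran from 2321033 to 5124925 per library. Ribosomal RNA repeats took 42.0% to 63.1% of them, and the LINE, SINE, LTR and DNA classes of TE took 21.2% to 43.1%. The 25 IAP subfamilies together received 4514 to 10817 counts per library, or 0.596% to 0.989% of the TE counts. Reads that mapped to a single place made up 364 to 801 of these. Most IAP counts were thus reads shared among near-identical copies by expectation-maximisation, and a read moved between related subfamilies would change both. The 7 embryonic stem cell markers examined stood at 10.1 to 13.5 on the variance-stabilised log2 scale, in a gene table whose lowest value was 6.13. The trophoblast gene Hand1 was at that lowest value in all 8 libraries, and the fibroblast, trophoblast, primitive endoderm and primed markers did not exceed 8.11. In these bulk samples more cells expressing an element and more RNA per cell cannot be told apart.

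Under vitC the RNA of 3 IAP subfamilies rose past the threshold in edgeR, or of 7 when the culture pairs were taken into account. DESeq2 with the culture pairs called 4. Of the 25, 22 passed the filter on low counts, 8 internal and 14 LTR. Levels are given as CPM, counts scaled to a common library total with edgeR's trimmed mean of M values (TMM), and fold changes refer to this scale. The internal subfamilies IAP-d-int and IAPEY3-int and the LTR subfamily IAPEY2_LTR rose past an adjusted p of 0.05 in edgeR's quasi-likelihood test, and no IAP subfamily fell. Over all 902 subfamilies tested, 0.887% were higher. With the culture pair as a block, 7 IAP subfamilies rose, 4 internal and 3 LTR, where 4.32% of all subfamilies were higher and 0.333% lower. IAPEy-int, IAPEz-int, IAPEY_LTR and IAPLTR1_Mm were the subfamilies added by the block in edgeR. In DESeq2 with the block, IAPEy-int was called beside the 3 of the unpaired edgeR fit, where 24 subfamilies of any kind were higher. The median log2 fold change was 0.27 over the 22 and -0.01 over all 902, and it was above 0 for 21 of the 22 against 439 of the 902. All 4 pairs were higher under vitC for 10 of the 22, against 13.3% of all subfamilies. The 4 vitC libraries lay above the 4 control libraries without overlap for 4 of the 22, against 4.99% of all.

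**Figure D1:**
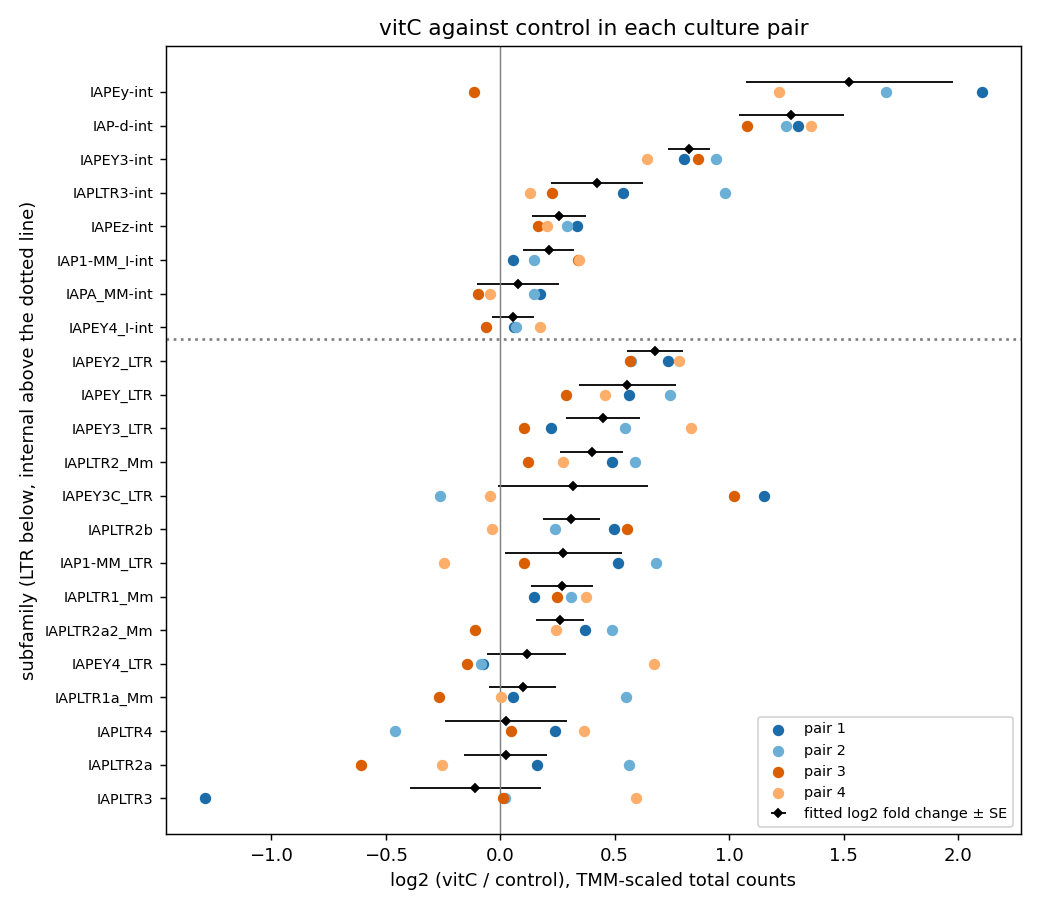
log2 ratio of vitC to control TMM-scaled CPM (horizontal axis) for the 22 tested IAP subfamilies (vertical axis), with 1 coloured point per culture pair and a black diamond with its SE for the fitted log2 fold change. IAPEy-int, IAP-d-int and IAPEY3-int lie farthest to the right, IAPEy-int has 1 pair below 0, and IAPLTR3 is the subfamily whose fitted value is below 0.

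The internal subfamily IAP-d-int, annotated in 1323 copies, had 57.7, 52.5, 35.5 and 36.1 TMM-scaled CPM in control libraries 1 to 4. In vitC libraries 1 to 4 it had 143, 125, 74.9 and 92.7. Every vitC library was above every control library, and within each group cultures 10 and 11 were above cultures 35B and 35C. The means were 45.4 ± 11.4 in control and 109 ± 30.6 under vitC (SD, n = 4), a log2 fold change of 1.27 (SE 0.23, edgeR adjusted p = 0.0357). The ratio varied little between pairs, with folds of 2.47, 2.38, 2.11 and 2.57. In the paired edgeR fit the adjusted p was 4.182e-05. When 1 library was left out of the unpaired fit, the call held in 2 of 8 fits, and in paired fits with 1 pair left out it held in 4 of 4. Over 21 alternatives the adjusted p ran from 4.848e-19 to 0.147, the highest by edgeR without vitC replicate 2.

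IAPEY3-int, annotated in 2345 copies, was the most even of the rising subfamilies in control cultures. It had 43, 41.8, 40.3 and 39.8 CPM in the control libraries and 75.1, 80.6, 73.5 and 62.2 in the vitC libraries. The groups did not overlap, and the lowest vitC library was that of culture 35C. The means were 41.2 ± 1.45 and 72.9 ± 7.74 (SD, n = 4), a log2 fold change of 0.82 (SE 0.09, edgeR adjusted p = 0.00325). This call held in 8 of 8 fits that left out 1 library and in the paired fit (edgeR adjusted p = 8.532e-04), with adjusted p from 1.085e-07 to 0.121 over 21 alternatives. It did not hold with cultures 35B and 35C alone (log2 fold change 0.76, edgeR adjusted p = 0.121), a fit of 2 libraries against 2.

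IAPEy-int, annotated in 755 copies, had the largest fitted change of the 22 and the least even one. It had 24.2, 26.9, 21.9 and 15.6 CPM in the control libraries and 104, 86.8, 20.2 and 36.4 in the vitC libraries. The vitC libraries of cultures 10, 11 and 35C were above all controls, whereas that of culture 35B lay within the control range. The means were 22.1 ± 4.82 and 61.9 ± 40.1 (SD, n = 4). Its log2 fold change was 1.53 (SE 0.45, edgeR adjusted p = 0.211) without the block and 1.41 (edgeR adjusted p = 0.0346) with it, and it was higher in 3 of 4 pairs. The folds in the pairs were 4.30, 3.21, 0.925 and 2.33. Leaving out vitC replicate 3 gave an unpaired edgeR adjusted p of 0.0453, and over 21 alternatives the adjusted p ran from 0.00152 to 0.927.

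IAPEz-int, which has 7319 annotated copies, the most of the 25, took 59.2% to 63.8% of all IAP counts in every library. The table gives no element length, so this is a share of reads and not a level per element. It had 1442, 1299.5, 1164 and 1171 CPM in the control libraries and 1817.5, 1593, 1305 and 1349 in the vitC libraries. Each pair was higher under vitC, but the groups overlapped, since the untreated library of culture 10 exceeded both vitC libraries of cultures 35B and 35C. The means were 1269 ± 131 and 1516 ± 238 (SD, n = 4), a log2 fold change of 0.26 (SE 0.12, edgeR adjusted p = 0.438). Its change was past the threshold only in paired fits by edgeR (log2 fold change 0.25, adjusted p = 0.0242), and the paired DESeq2 fit gave an adjusted p of 0.0503. Over 23 alternatives its adjusted p ran from 0.0242 to 0.817.

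The 4 other internal subfamilies were not past the threshold in either fit. IAPLTR3-int was higher in 4 of 4 pairs (log2 fold change 0.42, SE 0.20), from 25.4 ± 7.54 to 34.2 ± 3.97 CPM (SD, n = 4). IAP1-MM_I-int was also higher in 4 of 4 pairs (0.21, SE 0.11), from 94.4 ± 15.2 to 109 ± 7.97 CPM. IAPEY4_I-int (0.06, SE 0.09) and IAPA_MM-int (0.08, SE 0.18) had fitted changes smaller than their standard errors. The internal subfamilies IAPEY5_I-int, with 3 to 9 counts per library, and IAPLTR4_I, with 2 to 13, were below the filter. Fitted without the filter, they had log2 fold changes of 0.69 (SE 0.35, edgeR adjusted p = 0.620) and 0.76 (SE 0.48, edgeR adjusted p = 0.621).

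Among the LTR subfamilies, IAPEY2_LTR was past the threshold without the block. It had 21.3, 19.6, 18.8 and 17.0 CPM in the control libraries and 35.6, 29.3, 27.9 and 29.3 in the vitC libraries. The groups did not overlap and the pairs differed by folds of 1.66, 1.49, 1.48 and 1.72. The means were 19.2 ± 1.79 and 30.5 ± 3.45 (SD, n = 4), a log2 fold change of 0.68 (SE 0.12, edgeR adjusted p = 0.0357). Only 1 of 8 fits with a library left out kept the call. The adjusted p was highest, at 0.142 in edgeR, when control replicate 4 was dropped, while the log2 fold change lay between 0.59 and 0.73. The paired edgeR fit gave an adjusted p of 0.0126, and paired fits with 1 pair left out held the call in 2 of 4, with an adjusted p up to 0.0876. With the aligned library size the unpaired call was lost (edgeR adjusted p = 0.0893). The range over 23 alternatives was 0.00447 to 0.636, the highest in unique reads.

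IAPEY_LTR, which bears the name of IAPEy-int, had 32.3, 24.2, 20.9 and 22.5 CPM in the control libraries and 47.8, 40.7, 25.5 and 30.9 in the vitC libraries. The vitC libraries of cultures 35B and 35C lay below the untreated library of culture 10, so the groups overlapped, but each pair was higher under vitC. Its log2 fold change was 0.56 (SE 0.21, edgeR adjusted p = 0.361), and the paired fit gave 0.54 (edgeR adjusted p = 0.0346, from there to 0.898 over 23 alternatives).

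IAPLTR1_Mm, an LTR found with IAPEz internal sequence, had 166, 140.8, 111 and 124 CPM in the control libraries and 184, 175, 132 and 161 in the vitC libraries. Untreated culture 10 was again above the vitC libraries of cultures 35B and 35C. The log2 fold change was 0.27 (SE 0.14, edgeR adjusted p = 0.491), and in the paired fit 0.27 (edgeR adjusted p = 0.0377, from there to 0.872 over 23 alternatives). For IAPEz-int, IAPEY_LTR, IAPEy-int and IAPLTR1_Mm, the paired edgeR call held in 1 of 4 fits that each left out 1 pair. The paired DESeq2 fit gave adjusted p of 0.0850 for IAPEY_LTR and 0.177 for IAPLTR1_Mm.

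**Figure D2:**
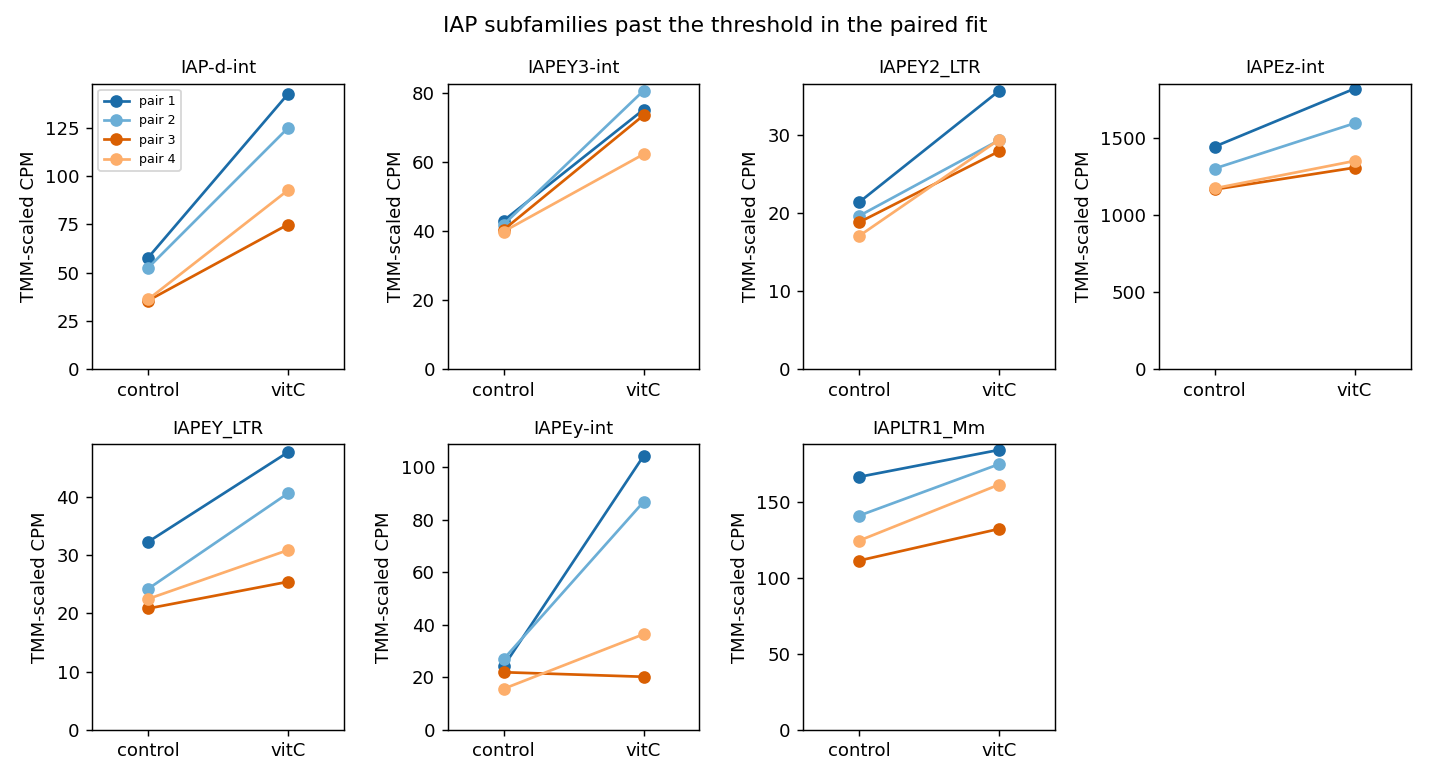
TMM-scaled CPM (vertical axis, from 0) in control and vitC libraries (horizontal axis) for the 7 IAP subfamilies past the threshold in the paired edgeR fit, with a line for each culture pair. IAP-d-int, IAPEY3-int and IAPEY2_LTR show no overlap between the groups, and IAPEy-int falls from 21.9 to 20.2 CPM in pair 3.

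The 11 other LTR subfamilies tested were not past the threshold in either fit. IAPEY3_LTR was the fourth subfamily without overlap, at 10.7, 10.6, 10.8 and 8.08 CPM in the control libraries and 12.5, 15.6, 11.5 and 14.5 in the vitC libraries (log2 fold change 0.45, SE 0.16, edgeR adjusted p = 0.305). IAPLTR2_Mm was higher in 4 of 4 pairs, from 53.8 ± 3.65 to 70.4 ± 14.1 CPM (log2 fold change 0.40, SE 0.14). IAPLTR2b (0.31, SE 0.12) and IAPLTR2a2_Mm (0.26, SE 0.10) were higher in 3 of 4 pairs. IAPEY3C_LTR (0.32, SE 0.33) and IAP1-MM_LTR (0.28, SE 0.26) rested on few counts, 8 to 24 and 16 to 40 per library. IAPEY4_LTR (0.12), IAPLTR1a_Mm (0.10), IAPLTR4 (0.03) and IAPLTR2a (0.02) had fitted changes below their standard errors, as did IAPLTR3 (-0.11), the one tested subfamily with a value below 0. The LTR subfamily IAPEY5_LTR, with 2 to 13 counts per library, was below the filter and had a log2 fold change of 0.79 (SE 0.40, edgeR adjusted p = 0.531) without it.

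By name, the 8 tested subfamilies that begin with IAPEY or IAPEy had a median log2 fold change of 0.50, against 0.26 for the 14 others. The 8 hold 2 of the 3 unpaired calls and 4 of the 7 paired ones. Grouping by these names was not among the planned comparisons, and the difference from the 14 others was not tested. Summed over all subfamilies of these names, counts went from 219 ± 17.3 to 324 ± 57.3 TMM-scaled CPM (SD, n = 4), with a log2 ratio of 0.57 and pair folds of 1.64, 1.60, 1.21 and 1.46. In unique reads the log2 ratio of this sum was 0.28, with pair folds of 1.05, 1.64, 0.929 and 1.26, so that it was higher in 3 of 4 pairs. The LTRs named IAPLTR1 and IAPLTR2 summed to 319 ± 20.5 and 379 ± 51.3 CPM, with pair folds of 1.19, 1.34, 1.06 and 1.16. In both sums of total counts the smallest fold was that of culture 35B.

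Uniquely mapped reads could be tested for 10 of the 25 subfamilies. None passed the threshold in edgeR, without the block (0.0% of the 742 subfamilies tested) or with it (0.404% of 742 higher), and 1 of the 10 was higher at an unadjusted p of 0.05, against 4.18% of the 742. All 10 had a log2 fold change above 0, with a median of 0.25 against -0.01 over the 742. IAPEY3_LTR had 0.76 (SE 0.24, edgeR adjusted p = 0.627) from 8, 12, 9 and 14 unique reads in the control libraries and 20, 26, 9 and 18 in the vitC libraries. IAPEY2_LTR had 0.70 (SE 0.35) in unique reads and 0.68 in total counts. The values were smaller in unique reads than in total counts for IAPEz-int (0.14 against 0.26) and IAPEY_LTR (0.16 against 0.56), where the SEs in unique reads were 0.13 and 0.25. The difference between the count types was not tested.

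**Figure D3:**
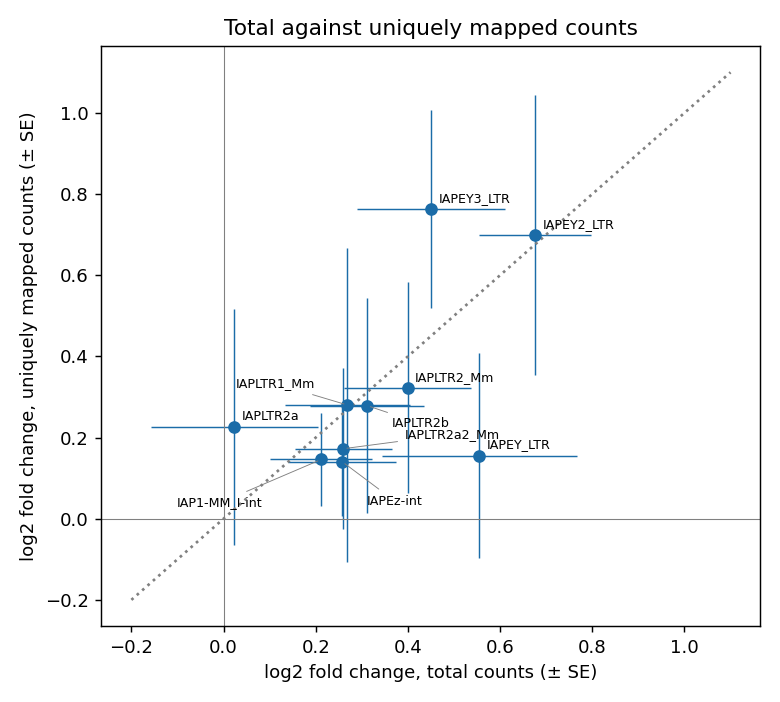
log2 fold change of vitC against control from total counts (horizontal axis) and from uniquely mapped counts (vertical axis) for the 10 IAP subfamilies tested in both, with SE bars and the line of equal values dotted. All 10 points are above 0 on both axes, and IAPEY_LTR lies farthest below the line.

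Of the internal subfamilies that rose in total counts, IAP-d-int, IAPEY3-int and IAPEy-int were below the filter in unique reads. IAP-d-int had 5, 4, 1 and 6 unique reads in the control libraries and 19, 19, 4 and 11 in the vitC libraries, and 3.57% of its counts were unique. IAPEY3-int had 5, 7, 3 and 6 against 4, 9, 3 and 7, and 3.14% of its counts were unique. Scaled for depth, the unique reads of IAP-d-int were higher under vitC in 4 of 4 pairs, by 1.56, 1.88, 1.97 and 1.13 on the log2 scale, and those of IAPEY3-int in 3 of 4, by -0.56, 0.10, 0.38 and 0.51. IAPEy-int had 6 unique reads over the control libraries and 10 over the vitC libraries, 1.45% of its counts.

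Internal and LTR subfamilies were compared as sums and as ratios within a library. Summed internal counts were 1586 ± 158 TMM-scaled CPM in control and 1997 ± 316 under vitC (SD, n = 4), a log2 ratio of the means of 0.33. Summed LTR counts were 432 ± 22.5 and 525 ± 54.1, a log2 ratio of 0.28. Each pair was higher under vitC in both sums, with folds of 1.33, 1.31, 1.16 and 1.22 for internal and 1.22, 1.31, 1.09 and 1.23 for LTR counts. No test was made of sums over members. IAPEz-int takes most of the internal counts. The internal sum without it moved more, from 317 ± 28.6 to 481 ± 79.4 CPM, a log2 ratio of 0.60. That sum includes IAP-d-int, IAPEY3-int and IAPEy-int, described above as rising. In unique reads the log2 ratios were 0.17 for internal and 0.24 for LTR counts, and internal counts were higher in 3 of 4 pairs. The internal sum without IAPEz-int had a log2 ratio of 0.22 in unique reads, with a fold of 0.979 in pair 1.

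**Figure D4:**
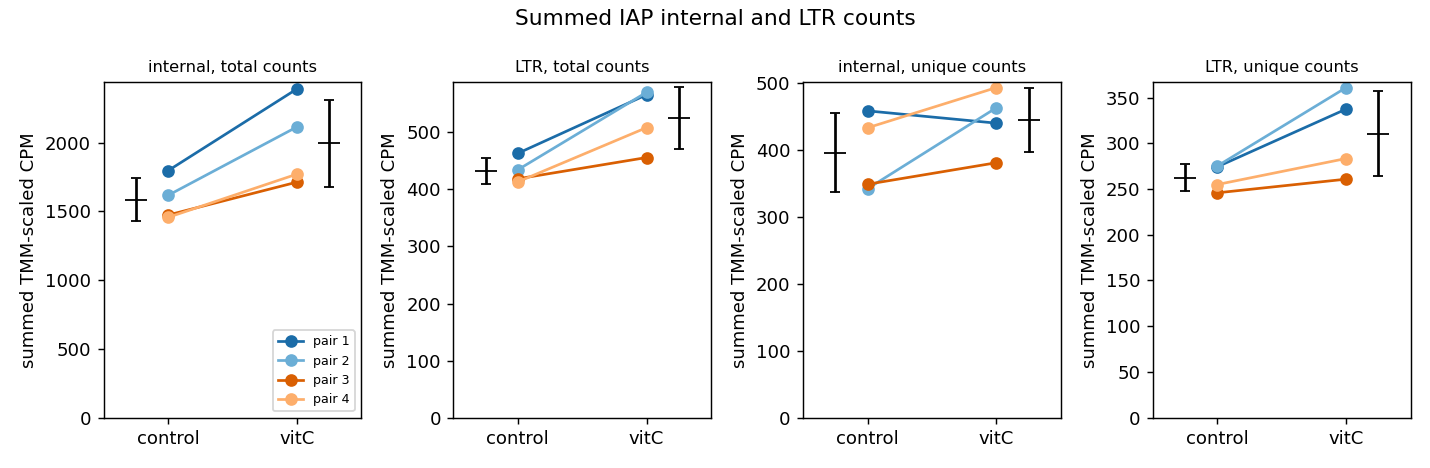
Summed TMM-scaled CPM (vertical axes, from 0) of internal and LTR IAP subfamilies in control and vitC libraries (horizontal axes), from total counts in the left panels and unique counts in the right panels, with a line for each culture pair and the group mean ± SD beside it. The sums are higher under vitC in each pair, except internal unique counts in pair 1.

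The log2 ratio of summed internal to summed LTR counts was 1.87 ± 0.07 in control and 1.92 ± 0.12 under vitC (SD, n = 4), a difference of 0.05 that lies within the spread. In unique reads it was 0.58 ± 0.21 and 0.52 ± 0.20. For 11 combinations of an internal subfamily with an LTR subfamily of its name, or with the LTRs that go with IAPEz-int, the ratio was tested by a two-sided exact permutation test over 70 labellings, whose smallest possible p is 0.0286. None passed after adjustment over the 11, and none could have done so alone, since a single ratio cannot go below an adjusted p of 0.314. The smallest was that of IAPEY3-int to IAPEY3_LTR, whose log2 ratio was 2.03 ± 0.17 in control and 2.42 ± 0.25 under vitC (difference 0.39, exact permutation p = 0.0571, adjusted p = 0.628, higher in 3 of 4 pairs). In unique reads that difference was -0.61. IAPEy-int to IAPEY_LTR differed by 0.71 (exact permutation p = 0.114, adjusted p = 0.629) and IAPEz-int to IAPLTR1_Mm by -0.02 (exact permutation p = 0.8286, adjusted p = 0.914).

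The 4 pairs fall into cultures 10 and 11 and cultures 35B and 35C, and the vitC response of each subfamily was compared between these sets by an interaction term. No subfamily passed the threshold in edgeR, IAP or other (0.0% of 902). At an unadjusted p of 0.05 the response of 3 of the 22 IAP subfamilies was smaller in cultures 35B and 35C, against 2.88% of all subfamilies. For IAPEy-int the log2 fold change was 1.91 in cultures 10 and 11 and 0.63 in cultures 35B and 35C (interaction -1.27, SE 0.38, edgeR adjusted p = 0.991). IAPLTR2a had 0.38 and -0.43 (interaction -0.81, SE 0.23, edgeR adjusted p = 0.991), with CPM of 29.5 and 35 in vitC libraries 1 and 2 and 20.2 and 21.9 in vitC libraries 3 and 4. IAPLTR3-int had 0.78 and 0.19 (interaction -0.59, SE 0.24, edgeR adjusted p = 0.991). The 0.63 of IAPEy-int joins unlike pairs, with folds of 0.925 in culture 35B and 2.33 in culture 35C. IAP-d-int (1.29 and 1.24) and IAPEY2_LTR (0.67 and 0.69) had nearly the same value in each set, with interactions of -0.05 (SE 0.19) and 0.03 (SE 0.23).

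**Figure D5:**
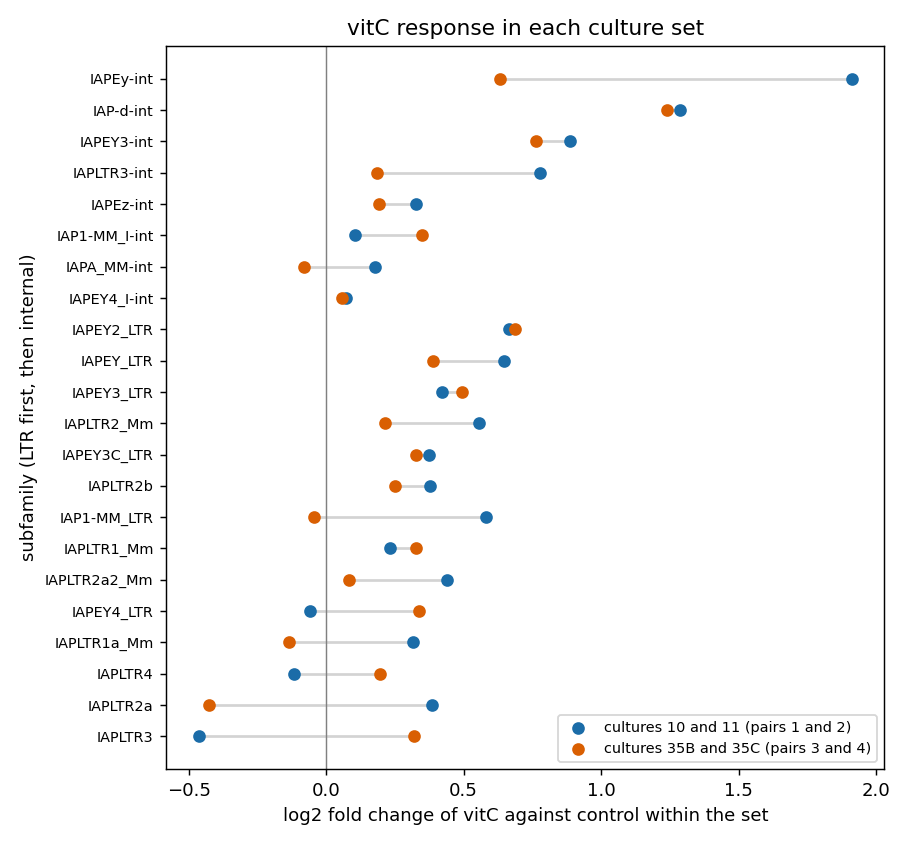
log2 fold change of vitC against control (horizontal axis) fitted within cultures 10 and 11 (blue) and within cultures 35B and 35C (orange) for the 22 tested IAP subfamilies (vertical axis), with a grey line joining the values of a subfamily. The longest line is that of IAPEy-int, from 1.91 to 0.63, while the points of IAP-d-int and IAPEY2_LTR nearly coincide.

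When libraries were scaled by their aligned size, the interaction of IAPEy-int was past the threshold (log2 -1.57, edgeR adjusted p = 0.0453), on a scale where the median over all subfamilies was -0.26. The ribosomal share moved with the sets. In cultures 10 and 11 it was 51.5% and 45.1% in control and 44.2% and 42.0% under vitC, and in cultures 35B and 35C it was 60.5% and 60.0% in control and 63.1% and 61.6% under vitC. Its part in the set difference was not tested. Of 11 markers of other cell types, 5 separated the sets without overlap, in both directions. The share of all genes that did so was not counted, so the 5 cannot be set against it. Cdx2 (trophoblast), T (primed) and Col1a2 (fibroblast) were higher in cultures 10 and 11, and Thy1 (fibroblast) and Fgf5 (primed) were higher in cultures 35B and 35C. Cdx2 stood at 7.65 to 7.80 against 6.52 to 6.76, Col1a2 at 6.79 to 7.36 against the lowest value of the table, and Thy1 at 6.55 to 6.70 against 7.36 to 7.65. Fgf5 stood at that lowest value, 6.13, against 6.31 to 6.45, which is close to it. The mean over the 11 was 6.76 to 6.84 in the libraries of cultures 10 and 11 and 6.57 to 6.63 in those of cultures 35B and 35C. The part of these genes in the set difference was likewise not tested.

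Untreated levels were compared between the sets as well. No IAP subfamily passed the threshold in edgeR, where 0.776% of all subfamilies did, and at an unadjusted p of 0.05 5 of the 22 differed, against 13.6% of all. IAP-d-int was lower in untreated cultures 35B and 35C than in 10 and 11 (log2 difference -0.62, SE 0.14, edgeR adjusted p = 0.0841). IAPLTR3-int was higher there (0.72, SE 0.17, edgeR adjusted p = 0.109), at 33.7 and 29.7 CPM against 20.7 and 17.6.

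Other ERVK LTR elements gave a measure of how the IAPs stood within their family. Of 231 others tested, 3 were higher without the block and 19 with it, with a median log2 fold change of 0.08. Their 34 internal subfamilies had a median of 0.24, near the 0.34 of the 8 IAP internal ones, and 11 of the 34 rose in the paired fit against 4 of the 8. All 4 pairs were higher under vitC for 18 of the 34, against 5 of the 8. The vitC libraries lay above the control libraries without overlap for 9 of the 34, against 2 of the 8. Values above 0 were fitted for 29 of the 34 and for 8 of the 8, so these traits of internal subfamilies were not particular to IAPs. The 231 include the 34, and the 14 IAP LTR subfamilies were not set against the remaining ones alone. The 3 subfamilies with ETn (early transposon) names had a median of 1.01, above all but IAPEy-int and IAP-d-int among the IAPs. The difference between IAPs and other ERVK elements was not tested.

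Genes that silence IAPs, or remove the marks involved, were read from the gene table. Of 33 on the list, 32 were tested by limma on the variance-stabilised values. Without the block none passed the threshold, where 0.342% of 14631 genes did, and at an unadjusted p of 0.05 2 of the 32 did, against 7.65% of all genes. With the block 6 were higher and 2 lower, where 10.8% of all genes were called in either direction. The median difference was 0.06 over the list and -0.00 over all genes.

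Atf7ip, whose protein partners and stabilises SETDB1 (GRCm38 chr6:136506167-136610862, plus strand), had 9.67, 9.65, 9.24 and 9.21 in the control libraries and 10.42, 10.58, 9.93 and 9.99 in the vitC libraries. The groups did not overlap (difference 0.79, SE 0.17, limma adjusted p = 0.112, and 4.597e-10 with the block). The gene 2810474O19Rik was higher by 0.36 (limma adjusted p = 0.0851, and 1.494e-06 with the block), also without overlap, from 10.34 ± 0.10 to 10.70 ± 0.09 (SD, n = 4). Setdb1, the H3K9 methyltransferase, differed by 0.23 and Kdm3b, a Jumonji H3K9 demethylase, by 0.21 (limma adjusted p with the block 4.029e-04 and 6.473e-04), each higher in 4 of 4 pairs. The lower genes were Tet2, which oxidises methylated cytosine, at -0.26 (limma adjusted p with the block 0.00492), and Cbx3, an HP1 protein that binds methylated H3K9, at -0.18 (0.0106), each lower in 4 of 4 pairs. Trim28 differed by -0.01 and Dnmt1 by 0.10, neither past the threshold. Among the stem cell markers, Nanog was lower by 0.25, Zfp42 by 0.13 and Pou5f1 by 0.12, and Tfcp2l1 was higher by 0.11, in the fit with the block (limma adjusted p 6.473e-04, 0.0356, 0.0220 and 0.0231). None of them passed without the block (limma adjusted p 0.332, 0.830, 0.916 and 0.882). Sox2 (-0.01), Klf4 (-0.03) and Esrrb (0.03), the other stem cell markers, passed in neither fit. The part of the silencing genes and of these markers in the IAP values was not tested.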

How the data were processed

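Libraries were directional and, by the study's methods, made from rRNA-depleted total RNA, where the labels name rRNA depletion or mRNA isolation. The authors mapped reads to mm10 with SQuIRE and deposited, per library and repeat subfamily, a count of uniquely mapped reads and an expected count in which multi-mapping reads are divided among copies. They also deposited variance-stabilised gene values from DESeq2 on a log2 scale. The depth of a subfamily's counts sets its precision. Another 2 columns of per-sample values in the mouse repeat table were not used, nor were the human tables, which hold no IAP subfamily. Tool versions are not given in the sources used here.

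Expected counts were rounded to whole numbers and fitted over all subfamilies with edgeR 4.0.16 in R 4.3.3 (filterByExpr, TMM, quasi-likelihood test, Benjamini-Hochberg adjustment, threshold 0.05). Log2 values of genes were tested with limma 3.58.1 (eBayes with trend) for genes that exceeded the minimum of the table in 4 or more libraries. Ratios used a pseudocount of 0.5. Groups came from the labels. The culture labels pair the libraries. Deviations from the group means correlated at 0.230, 0.310, 0.300 and 0.557 in pairs 1 to 4. These correlations were not compared with those of libraries with unlike labels, so they do not test the pairing. Alternatives were the replicate block, DESeq2 1.42.0, other scalings and filters, unique counts, single libraries left out and single culture sets; leaving out pairs in the blocked fit, and the aligned library size with the block for the set comparison, were added after seeing the data. The unpaired edgeR fit, the interaction fit and the unpaired limma fit were tested on simulated data, with changes larger than most of those reported. The blocked fits were not tested in this way. Every IAP subfamily that passed the filter is named. Silencing genes are named when past the threshold in either fit, at most 4 in each direction. Trim28, Dnmt1 and the cell markers named beside a result were chosen after their values were seen. Members and lists were chosen with earlier results of these data known. Gene coordinates are from GENCODE vM21.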

Additional observations from a re-analysis of the deposited data

Results flagged for a closer look

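Each of the 22 tested IAP subfamilies was checked in the control and in the vitC group for a library that stood apart by Dixon's criterion, 44 groups in all, of which chance flags about 1 in 20. In 1 group a library did. IAPEY3_LTR was at 8.08 CPM in control replicate 4 (culture 35C), while the other control libraries held 10.6 to 10.8 CPM. The vitC library of the same culture had 14.5 CPM, which made pair 4 the pair with the largest fold of this subfamily, 1.78.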

How the results depend on the processing

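Of the 22 IAP subfamilies tested, 3 were past the threshold. The count was 7 in edgeR with the culture pair as a replicate block. In unique counts, with or without the block, it was 0 of the 10 tested, which do not include IAP-d-int and IAPEY3-int. The count was 1 of 23 in cultures 35B and 35C alone, and 1 to 4 with 1 library left out. In blocked fits without 1 pair it was 2 to 7 (7 without replicate 3). Subfamilies of any kind that were higher numbered 8 of 902 without the block and 39 with it. They numbered 6 of 895 in cultures 35B and 35C and 3 to 13 with 1 library left out. Blocked fits without 1 pair gave 18 to 35. DESeq2 gave 4 IAP subfamilies, where 18 of any kind were higher. With the block it also gave 4, where 24 of any kind were higher. DESeq2 size factors and TE classes alone gave 3 of 22 each, and no filter gave 3 of 25. The aligned library size also gave 3, but IAPEY2_LTR was lost (edgeR adjusted p = 0.0893) and IAPEy-int gained (0.0395). The aligned library size moved the median of all subfamilies from -0.01 to 0.12 and that of the IAPs from 0.27 to 0.41. The set interaction passed for 0 IAP subfamilies with or without the block and for 1 with the aligned library size. With that size and the block it passed for 2, IAPEy-int and IAPLTR2a. Over all 902 subfamilies, 1 passed with the aligned library size, and with the block added 3 passed as higher and 13 as lower. In that last fit the median over all subfamilies was -0.25. The summed internal log2 ratio was 0.33, against 0.17 in unique counts, 0.47 with the aligned library size and 0.23 to 0.40 with 1 library left out. The summed LTR ratio was 0.28, against 0.41 with the aligned library size. Of the silencing genes, 0 passed without the block and 8 with it. The exact sign-flip test of the paired ratios cannot go below p = 0.125.

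Subfamilies with no call changed sign under some alternatives. IAPLTR2a was at -0.024 in the blocked DESeq2 fit, -0.43 in cultures 35B and 35C, -0.15 to 0.13 with 1 library left out, and -0.030 and -0.20 in blocked fits without pair 1 or 2. IAPLTR3 was at 0.016 with the aligned library size, 0.32 in cultures 35B and 35C, -0.25 to 0.14 with 1 library left out and 0.22 without pair 1. IAPLTR4 was at -0.12 in cultures 10 and 11, -0.15 to 0.22 with 1 library left out, and -0.00 and -0.054 in blocked fits without pair 1 or 4. IAPEY4_LTR was at -0.060 in cultures 10 and 11, -0.036 to 0.19 with 1 library left out and -0.088 without pair 4. IAPLTR1a_Mm was at -0.14 in cultures 35B and 35C, -0.0080 to 0.20 with 1 library left out and -0.0665 without pair 2. IAPA_MM-int was at -0.081 in cultures 35B and 35C and -0.0047 to 0.14 with 1 library left out, IAPEY4_I-int at -0.0097 to 0.12 with 1 library left out, and IAP1-MM_LTR at -0.046 in cultures 35B and 35C. The cause was not tested. The 3 subfamilies below the filter had at most 13 counts in a library, and none of them passed without the filter (edgeR adjusted p 0.531 to 0.621).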
